A study of Mus musculus with 4 samples.

Results

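The genes described here encode the machinery of mitosis and of the G2 phase that leads into it, and they were read in fibroblasts being reprogrammed towards hepatocytes. They are 54 genes of the 55397 in the count table, taken by symbol from a fixed list and kept where their mean over the 4 libraries reached 10 normalized counts. The members were thus chosen by name and by mean level, and the list was drawn up with earlier results of these data in view, so it is no finding that all of them were expressed, and their counts below are descriptions set beside the share of all genes. All 54 reached the minimum, the lowest being Cdkn3 with a mean of 17.8 and Cdc25c with 20.9, and no listed gene lay outside it. Cdkn3 passed through its control libraries, since its mean in the other group was 6.48.

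The cells were primary mouse embryonic fibroblasts (MEFs) of C57BL/6J Prox1 fl/fl embryos, so both alleles of Prox1, a transcription factor of the liver lineage, carried loxP sites in every library. Both groups received the 4in1 lentivirus (LV.4TF), which carries hepatocyte-inducing transcription factors, and hepatocyte culture medium. The group labelled Prox1 KO also received FUW-GFP-Cre, and the control group FUW-GFP-dCre, which encodes a non-functional recombinase. RNA of whole cultures was collected at day 14, with 2 libraries in each group, numbered 1 and 2 in the labels. The labels do not say whether the numbers stand for separate embryos, name no promoter for Cre and state no sorting of transduced cells.

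The libraries held between 42469031 and 48524008 reads on genes, and the authors' size factors lay between 0.939 and 1.09. Prox1 itself had 60.6 and 25.5 normalized counts in control replicates 1 and 2 and 72.7 and 61.6 in the libraries labelled Prox1 KO, a log2 fold change of 0.75 (SE 0.27, adjusted p = 0.0936 from limma). This count covers the whole gene, of which Cre removes a part, so it is no direct reading of the deletion, and every direction below rests on the labels. Of the fibroblast markers fixed for the check of cell type, all 9 were expressed, with Col1a1 between 251990 and 300038 normalized counts, and the hepatocyte marker Alb lay between 3838 and 5021. By limma (adjusted p under 0.05), 6 of the 6 epithelial markers were lower in the libraries labelled Prox1 KO. So were 6 of the 7 hepatocyte and 4 of the 9 fibroblast markers, where 6.29% of all genes tested were lower and 5.09% higher. The summed level of the epithelial list was 6969 to 8023 against 11508 to 16828 in the controls, that of the hepatocyte list 19438 to 21328 against 26671 to 29270, and that of the fibroblast list 1567808 to 1812551 against 1589597 to 1889448. One myocyte marker of the 2 tested (Des) and 1 endothelial marker of the 2 tested (Kdr) were higher, and the 1 blood cell marker tested (Cd68) was not called. Their lists summed to 1742 to 1835 against 1410 to 1442 normalized counts in the controls for myocytes, 933 to 1063 against 623 to 751 for endothelium and 213 to 242 against 168 to 179 for blood cells. Kdr made up most of the endothelial sum, with 938 and 770 against 564 and 509 in the controls. Des made up most of the myocyte sum, with 1553 and 1560 against 1125 and 1311. Tek took opposite signs in the replicate pairs (log2 differences of -0.71 and 0.50), and so did Tnnt2 (-0.16 and 0.85). The endothelial markers Pecam1 and Cdh5 had at most 12.5 and 8.80 normalized counts. The defining myocyte markers Myog and Ckm had at most 1.06 normalized counts and the macrophage marker Adgre1 had 0 reads in every library. The part of these other markers in the differences between mitosis genes was not tested.

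A cell enters mitosis when cyclin-dependent kinase 1 (CDK1), bound to cyclin A or cyclin B, is switched on by CDC25 phosphatases and Polo-like kinase 1. Condensin and topoisomerase II then shape the chromosomes, kinetochores attach them to the spindle, a checkpoint holds the cell until all are attached, and the anaphase-promoting complex starts their separation. The genes for this machinery are transcribed late in the cell cycle under the MuvB complex with B-Myb (encoded by Mybl2) and FOXM1, through a promoter element called the cell cycle genes homology region (CHR) and, in many of them, CCAAT boxes bound by NF-Y. Fibroblasts in culture divide, while hepatocytes in the resting liver rarely do.

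Members were chosen by name and level, without their promoter sequences. Since genes of this machinery are known for these motifs, high shares follow in part from the choice of list. The shares describe the list and not these libraries. RefSeq promoters on GRCm38.p6, running from 250 bases before to 50 bases after a gene's start, were at hand for 44 of the 54 genes, in 47 entries. The CHR was searched as TTTGAA or TTCGAA and the box as CCAAT, both on either strand. Other forms of the CHR were not searched, so a gene without these letters may hold another form. The motifs printed below do not overlap each other. CHR letters were present in 33 of the 47 entries (70.2%), against 19.2% of the 32851 promoters of the whole table. They were within 50 bases of the start in 61.7% of the members' entries and in 5.31% of all promoters. A CCAAT box was present in 74.5% against 37.4%, and both motifs in 61.7% against 7.52%. Of other G2/M genes, 57.1% of 77 entries held CHR letters, and of S phase genes 22.4% of 49. A match is a run of letters, and binding was not measured here.

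The windows below, from 100 bases before to 30 bases after the start, show the arrangement in genes from successive steps of mitosis, with the matched letters in capitals (ATTGG and TTCAAA are the motifs on the other strand). Cdk1, Kif11, Cenpf, Cdc20, Ube2c and Kif23 hold both motifs, and their levels were lower in the libraries labelled Prox1 KO. Ccnb1, also lower, and Gtse1, which differed little, have CCAAT boxes without either CHR form searched. The genes shown were picked as examples. Of all 27 genes with both motifs, 18 were lower by limma (adjusted p under 0.05), and the rest, among them Aurka and Smc2, were not called.
Cdk1 (chr10:69352883-69353012, minus strand): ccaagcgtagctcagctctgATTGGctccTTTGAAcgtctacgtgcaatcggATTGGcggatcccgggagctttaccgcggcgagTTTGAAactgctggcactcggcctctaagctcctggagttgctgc
Ccnb1 (chr13:100786457-100786586, minus strand): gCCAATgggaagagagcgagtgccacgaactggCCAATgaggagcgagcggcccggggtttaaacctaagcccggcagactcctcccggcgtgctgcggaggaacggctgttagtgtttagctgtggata
Cenpf (chr1:189688057-189688186, minus strand): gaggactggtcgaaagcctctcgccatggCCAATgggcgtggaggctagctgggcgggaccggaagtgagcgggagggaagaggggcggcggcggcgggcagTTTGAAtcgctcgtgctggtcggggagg
Kif11 (chr19:37376282-37376411, plus strand): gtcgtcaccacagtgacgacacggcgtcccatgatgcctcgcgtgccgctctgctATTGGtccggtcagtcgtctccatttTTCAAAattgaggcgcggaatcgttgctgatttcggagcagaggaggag
Gtse1 (chr15:85859607-85859736, plus strand): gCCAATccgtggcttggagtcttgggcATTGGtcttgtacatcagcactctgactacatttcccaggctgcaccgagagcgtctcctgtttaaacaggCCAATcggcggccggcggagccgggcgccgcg
Cdc20 (chr4:118437314-118437443, minus strand): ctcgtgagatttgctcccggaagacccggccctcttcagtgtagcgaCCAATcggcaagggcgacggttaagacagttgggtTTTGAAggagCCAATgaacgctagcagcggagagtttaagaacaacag
Ube2c (chr2:164769829-164769958, plus strand): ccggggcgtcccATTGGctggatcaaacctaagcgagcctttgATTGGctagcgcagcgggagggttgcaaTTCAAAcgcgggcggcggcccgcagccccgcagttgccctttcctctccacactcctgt
Kif23 (chr9:61946770-61946899, minus strand): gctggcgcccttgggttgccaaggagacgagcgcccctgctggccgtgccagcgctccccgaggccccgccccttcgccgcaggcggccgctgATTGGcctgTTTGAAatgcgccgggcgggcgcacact

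**Figure D1:**
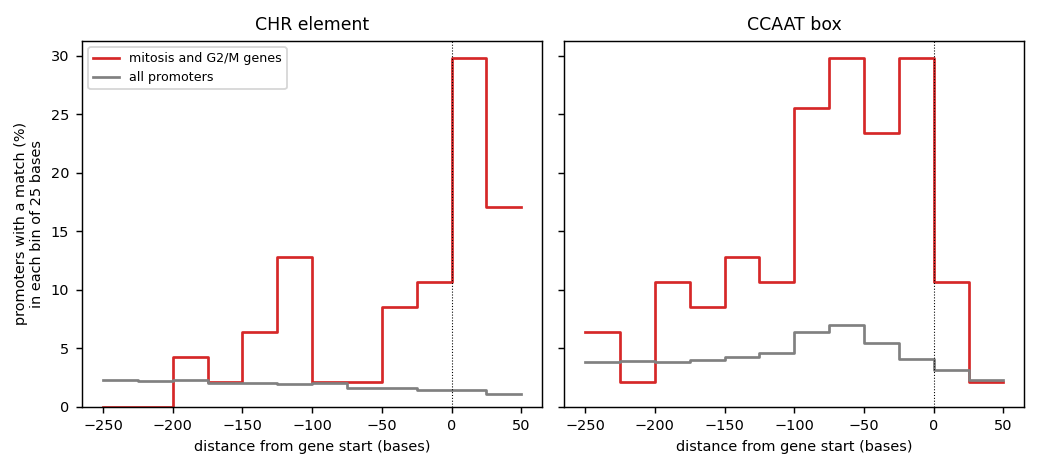
Share of promoters (y axis, percent) with a match in each bin of 25 bases, against distance from the gene start (x axis, bases), for CHR letters (left) and CCAAT boxes (right); the red line is the 47 entries of mitosis and G2/M genes and the grey line all 32851 promoters. Matches in the red line crowd around the start for CHR letters and just before it for CCAAT boxes, while the grey lines stay low throughout.

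Of the 54 genes, 27 fell in the libraries labelled Prox1 KO and 0 rose by limma with the replicate number as a block (adjusted p under 0.05 over all 15809 genes tested), where 6.29% of all genes tested were lower and 5.09% higher. The fold change was below 0 for 51 genes (50 with quantile normalization, where Incenp came to lie above 0) and above 0 for 3, and 49 were lower in both replicate pairs, as were 33.3% of all genes tested. The median log2 fold change was -0.51 (-0.55 in pair 1 and -0.49 in pair 2), against -0.0022 over all genes tested. For 44 genes both libraries labelled Prox1 KO lay below both controls, and for 1 above, where 22.6% and 21.8% of all genes tested did so. At an unadjusted p under 0.05, limma had 39 genes lower and 0 higher, where 12.4% of all genes tested were lower and 11.3% higher. The summed level of the 54 genes was 17654 and 19438 normalized counts in control replicates 1 and 2 and 14664 and 16159 in the libraries labelled Prox1 KO. In a bulk culture, fewer dividing cells and less RNA per dividing cell cannot be told apart.

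The number of calls rested on the test. edgeR's quasi-likelihood test on the recovered reads gave the same 27 genes lower (6.48% of all genes tested) and 0 higher, DESeq2's Wald test gave Mki67, Top2a and Kif23 lower and 0 higher (2.07% of the 12595 genes it gave an adjusted p, which include 47 of the 54), with 16 lower at an unadjusted p under 0.05 (4.95% of all genes tested), and limma without the block gave 0 lower and 0 higher, with 24 lower at an unadjusted p under 0.05 (6.26% of all genes tested). Quantile normalization left 16 of the 27 calls, without Bub1b, Nusap1, Mybl2, Cenpa, Tacc3, Ncapg, Ncapd2, Prc1, Hmmr, Dlgap5 and Kif20b, and a correction for GC content and length left 23, without Bub1b, Cenpa, Tacc3 and Kif20b. With 1 library left out, and thus without the block, the count was 1 (Mki67) without Prox1 KO replicate 2 and 0 without any of the other libraries, and the median log2 fold change lay between -0.60 and -0.33.

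**Figure D2:**
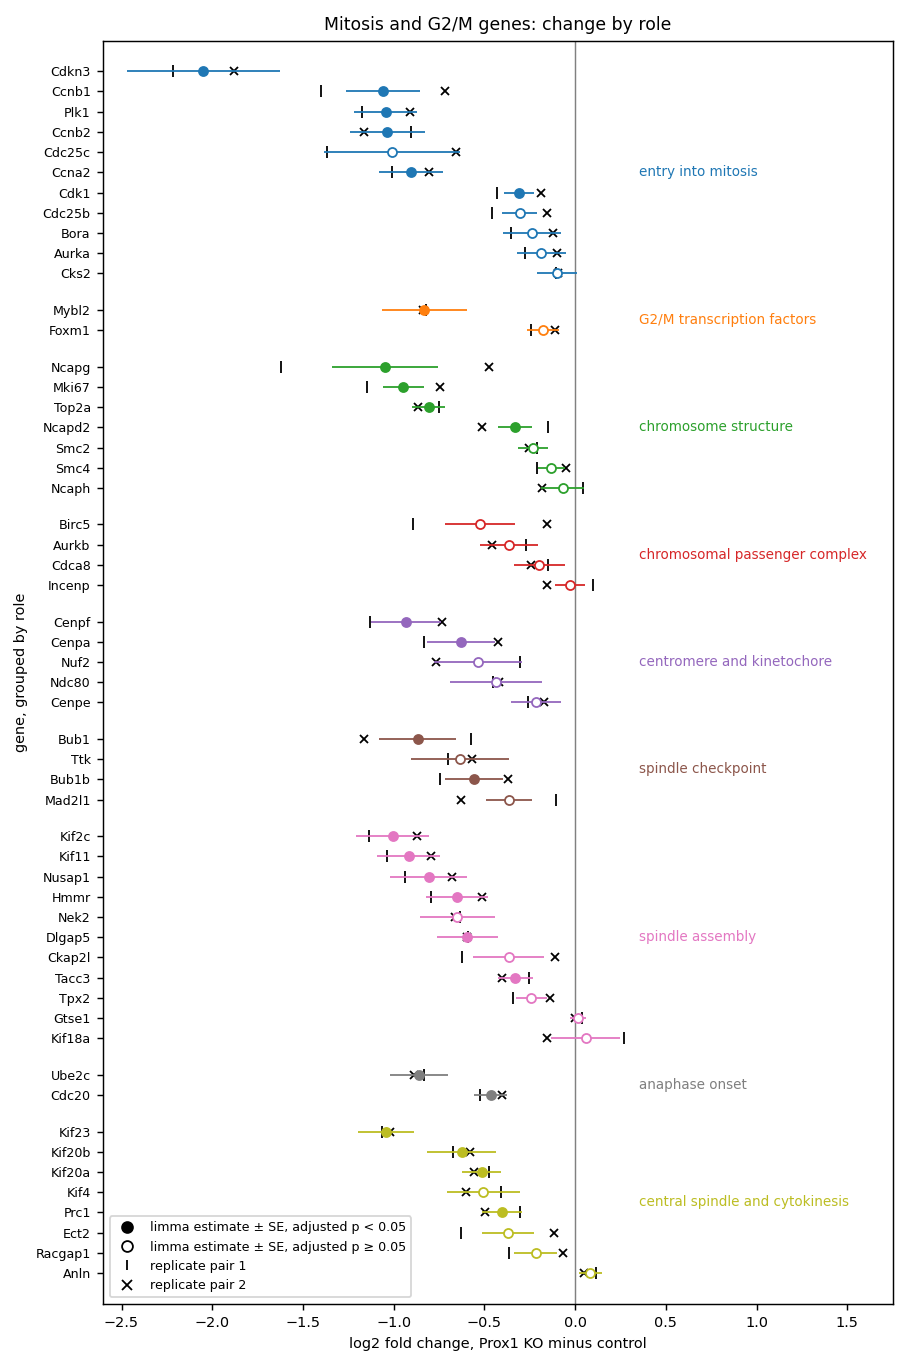
Log2 fold change, libraries labelled Prox1 KO minus controls (x axis), of each of the 54 genes grouped by role (y axis). Circles are limma estimates ± SE, filled where the adjusted p was under 0.05, with a bar for replicate pair 1 and a cross for pair 2, and all but Kif18a, Anln and Gtse1 have estimates left of 0, Incenp too lying above 0 with quantile normalization.

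Among the 11 genes of mitotic entry, 6 fell and 5 did not pass the test, with a median log2 fold change of -0.91. Cdk1, the kinase that drives entry, had 745 and 811 normalized counts in control replicates 1 and 2 and 553 and 711 in the libraries labelled Prox1 KO. The groups did not overlap, and the fall was small, with a log2 fold change of -0.31 (SE 0.08, adjusted p = 0.0206 from limma). Its partner cyclin B1, encoded by Ccnb1, fell by more, from 139 and 128 to 52.0 and 77.2 (log2 fold change -1.06, SE 0.21, adjusted p = 0.00319 from limma). Of the 100-base windows of Ccnb1 transcripts, 28.6% also occur in other annotated genes, mainly the pseudogene Ccnb1-ps, so its level is less certain. Ccnb2 (cyclin B2) fell by 1.03 and Ccna2 (cyclin A2) by 0.91 on the log2 scale, the latter sharing 14.4% of its windows with other genes. Plk1, the Polo-like kinase that helps to switch on CDK1, had 130.4 and 201 normalized counts in the controls and 57.2 and 107 in the libraries labelled Prox1 KO. Both replicate pairs showed the difference, and the log2 fold change was -1.04 (SE 0.17, adjusted p = 0.00104 from limma). Cdkn3, a phosphatase that acts on cyclin-dependent kinases, had the largest fold change of the 54 genes on the fewest reads. It passed the minimum mean only through its control libraries, so the filter favoured a fall. Its normalized counts were 23.0 and 35.1 in the controls and 4.16 and 8.80 in the libraries labelled Prox1 KO, from 25, 33, 4 and 9 reads, which did not overlap (log2 fold change -2.05, SE 0.42, adjusted p = 0.00476 from limma).

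The CDC25 phosphatases and the Aurora A kinase with its partner did not pass the test. Cdc25b differed by -0.31 on the log2 scale (limma's adjusted p = 0.0517) and Cdc25c, with 9 to 28 reads, by -1.01 (limma's adjusted p = 0.102). Of the windows of Cdc25c, 20.7% are shared with Gm3550 on the opposite strand. Aurka, the kinase that matures centrosomes, had -0.19 and Bora, its activating partner towards PLK1, -0.24. Cks2, a small subunit of the CDK1 complex, had -0.10, with 23.8% of its windows shared with other genes. Aurka was the single gene of the group whose libraries overlapped between groups. Of all genes tested, 22.6% had both libraries labelled Prox1 KO below both controls.

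Of the transcription factors of G2/M, Mybl2 fell and Foxm1 did not pass the test. Foxm1 had 505 and 594 normalized counts in the controls and 427 and 549 in the libraries labelled Prox1 KO, which overlapped (log2 fold change -0.18, SE 0.09, adjusted p = 0.231 from limma). Mybl2 (B-Myb), at a lower level, fell from 70.7 and 72.4 to 39.5 and 40.1, with replicates close together in each group (log2 fold change -0.83, SE 0.24, adjusted p = 0.0332 from limma), although 20.0% of its windows also occur in other genes. A test of the difference between both factors was not run.

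In the group of chromosome structure, 4 of 7 genes fell. Mki67, which encodes the coat protein Ki-67 of mitotic chromosomes used as a label of dividing cells, had 442 and 526 normalized counts in control replicates 1 and 2 and 198 and 314 in the libraries labelled Prox1 KO. The highest of the latter was below the lowest control, and the log2 fold change was -0.95 (SE 0.11, adjusted p = 6.61e-05 from limma). Top2a, the topoisomerase II that untangles sister chromatids, fell from 561 and 681 to 334 and 373, by similar factors in both pairs (log2 fold change -0.81, SE 0.09, adjusted p = 3.16e-05 from limma). Subunits of condensin, the ring complex that compacts chromosomes, ranged more widely. Ncapg fell from 72.5 and 62.8 to 22.9 and 45.0 (log2 fold change -1.05, SE 0.29, adjusted p = 0.0293 from limma). The difference was -1.62 for replicate 1 and -0.47 for replicate 2. Ncapd2 fell by 0.33 on the log2 scale. The most abundant gene of the group, Smc4, had 771 and 783 in the controls against 666 and 756 (log2 fold change -0.13, SE 0.08, adjusted p = 0.315 from limma), and its partner Smc2 had a log2 fold change of -0.23 and Ncaph one of -0.07. The condensin genes of this group thus spanned log2 fold changes from -1.05 to -0.07, though their products can act in 1 complex.

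None of the 4 genes of the chromosomal passenger complex, which corrects faulty attachments and later directs the cleavage furrow, passed limma's test, with 2 at an unadjusted p under 0.05 and 0 called by edgeR or DESeq2. Aurkb, the kinase of the complex, had 133 and 167 normalized counts in the controls and 110.2 and 121 in the libraries labelled Prox1 KO (log2 fold change -0.37, SE 0.16, adjusted p = 0.177 from limma). Birc5 (survivin) had 134 and 144 against 71.7 and 129, with most of the difference in pair 1 (log2 fold change -0.52, SE 0.19, adjusted p = 0.101 from limma). The scaffold gene Incenp was the most abundant and its groups overlapped, with 685 and 762 against 734 and 684 (log2 fold change -0.03, SE 0.08). Cdca8 (borealin) had a log2 fold change of -0.20.

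At the centromere and kinetochore, 2 of 5 genes fell. Cenpa, the histone H3 variant that marks centromeres, fell from 114 and 129 normalized counts to 63.4 and 95.8 (log2 fold change -0.63, SE 0.19, adjusted p = 0.0432 from limma). Cenpf, a large kinetochore protein, fell from 115 and 141 to 52.0 and 84.1 (log2 fold change -0.93, SE 0.19, adjusted p = 0.00509 from limma). The kinetochore motor gene Cenpe was the most abundant of the group and did not pass, with 192 and 187 against 160.0 and 166 (log2 fold change -0.22, SE 0.14). Ndc80 and Nuf2, whose products bind microtubules as a pair, had log2 fold changes of -0.44 and -0.54 and did not pass either. In each of the 5 genes, both libraries labelled Prox1 KO lay below both controls, as they did in 22.6% of all genes tested.

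Of the 4 spindle checkpoint genes, Bub1 and Bub1b fell and Mad2l1 and Ttk did not pass. Bub1, a checkpoint kinase at kinetochores, had 96.4 and 117 normalized counts in the controls and 64.4 and 51.8 in the libraries labelled Prox1 KO (log2 fold change -0.87, SE 0.21, adjusted p = 0.0151 from limma). Bub1b (BubR1), part of the inhibitor of the anaphase-promoting complex, fell by 0.56 on the log2 scale, although its replicate 2 labelled Prox1 KO (154) lay above control replicate 1 (151). Mad2l1, the most abundant of the group, had 315 and 386 against 293 and 249 (log2 fold change -0.37, SE 0.13, adjusted p = 0.0789 from limma). Ttk, the kinase at the head of the checkpoint, had 39.5 and 62.8 against 23.9 and 42.0, which overlapped (log2 fold change -0.63, SE 0.27, adjusted p = 0.158 from limma). All 4 were lower in both pairs, as were 33.3% of all genes tested.

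Of the 11 genes of spindle assembly, 6 fell, and the group also held the most abundant of all 54 genes. Kif11, the motor that pushes the spindle poles apart, fell from 144 and 159 normalized counts to 69.6 and 90.9 (log2 fold change -0.92, SE 0.17, adjusted p = 0.00288 from limma). Kif2c, a depolymerase of microtubules at kinetochores, fell from 92.7 and 138 to 41.6 and 75.3 (log2 fold change -1.0, SE 0.20, adjusted p = 0.00404 from limma). The groups of both genes were apart. Nusap1 (-0.81), Hmmr (-0.65), Dlgap5 (-0.59) and Tacc3 (-0.33), which bind or stabilize spindle microtubules, were the other genes that fell, given here as log2 fold changes. Nek2, a centrosome kinase, missed the threshold at -0.65 on the log2 scale (limma's adjusted p = 0.0548), and Ckap2l (-0.37), Tpx2 (-0.24) and the motor gene Kif18a (0.06) did not pass. Gtse1, whose product binds microtubules and restrains p53, had 3888 and 4021 in the controls and 3988 and 4012 in the libraries labelled Prox1 KO. Its log2 fold change was 0.02 (SE 0.04, adjusted p = 0.863 from limma), and the 4 libraries overlapped. Per kilobase of exonic length its mean level was 1450.4 normalized counts, where the next of the 54 genes, Cks2, had 426 and Cdc20 had 245, and 0 of its windows were shared with other genes.

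Both genes of anaphase onset fell, and their groups were apart. Cdc20, the activator of the anaphase-promoting complex, had 538 and 525 normalized counts in the controls and 373 and 396 in the libraries labelled Prox1 KO (log2 fold change -0.47, SE 0.09, adjusted p = 0.00344 from limma). Ube2c, the ubiquitin-conjugating enzyme of that complex, had 162 and 195 against 90.4 and 105 (log2 fold change -0.86, SE 0.16, adjusted p = 0.00228 from limma).

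Of the 8 genes of the central spindle and cytokinesis, 4 fell. Kif23, the motor of the centralspindlin complex, had 196 and 221 normalized counts in the controls and 93.5 and 109 in the libraries labelled Prox1 KO. Both pairs gave nearly the same difference, and the log2 fold change was -1.04 (SE 0.15, adjusted p = 0.000358 from limma). Its partner in that complex, Racgap1, did not pass at -0.22 on the log2 scale (limma's adjusted p = 0.288). Kif20b, a motor of late cytokinesis, fell from 91.8 and 129 to 57.2 and 86.0 (log2 fold change -0.63, SE 0.19, adjusted p = 0.0461 from limma). Kif20a fell by 0.52, though 27.4% of its windows are shared, mostly with Cdc23 on the opposite strand, and Prc1, which bundles midzone microtubules, fell by 0.40 on the log2 scale. Kif4 (-0.51) and the RhoA activator gene Ect2 (-0.37) did not pass, and 15.0% of the windows of Kif4 are shared with Pdzd11 on the opposite strand. Anln (anillin), the scaffold of the contractile ring and the second most abundant of the 54 genes by normalized counts, had 1026 and 1034 in the controls and 1113 and 1070.3 in the libraries labelled Prox1 KO. These groups were apart in the other direction, with a log2 fold change of 0.08 (SE 0.06, adjusted p = 0.468 from limma).

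**Figure D3:**
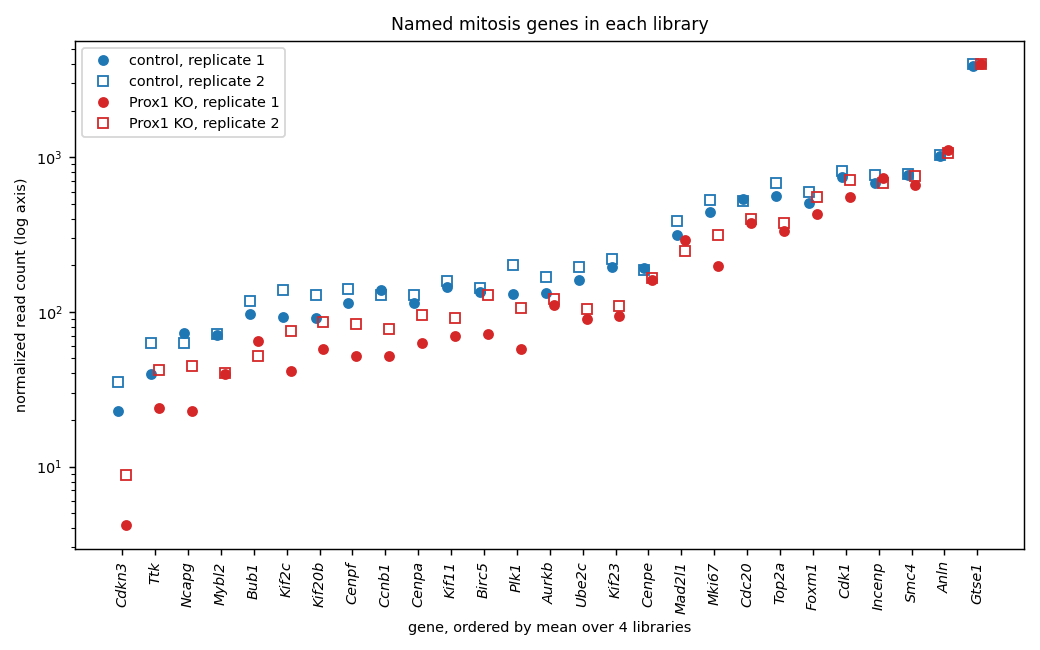
Normalized read counts (y axis, log axis) of the 27 genes given with full values, ordered by mean over the 4 libraries (x axis), with blue marks for controls, red marks for libraries labelled Prox1 KO, filled circles for replicate 1 and open squares for replicate 2. Red marks lie below blue ones for genes such as Cdkn3, Kif23 and Top2a, and the marks coincide for Gtse1.

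The size of the difference went with the level of the gene. Of the 17 genes with a mean under 100 normalized counts, 10 fell, with a median log2 fold change of -0.83. Cdkn3, which passed the minimum mean only through its control libraries, is among them. Of the 20 with means from 100 to under 300, 9 fell, with a median of -0.45, and of the 17 with means of 300 or more, 8 fell, with a median of -0.31. Over all genes tested, the medians in these ranges were -0.033, -0.059 and 0.0058, and the shares called lower 3.22%, 8.04% and 7.18%. Fold changes of all genes tested also spread less at higher levels. Their 5th to 95th percentiles on the log2 scale ran from -0.97 to 0.90 around a mean of 12.7 normalized counts. The range was -0.78 to 0.41 around a mean of 90.1 and -0.22 to 0.18 around 1442. The part of this spread in the trend of the 54 genes was not tested. Spearman's rho between the log2 mean level and the log2 fold change was 0.648 over the 54 genes, which share their libraries and are not independent. Without Gtse1 and Anln the summed level was 12740 and 14383 in the controls and 9563 and 11077 in the libraries labelled Prox1 KO.

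**Figure D4:**
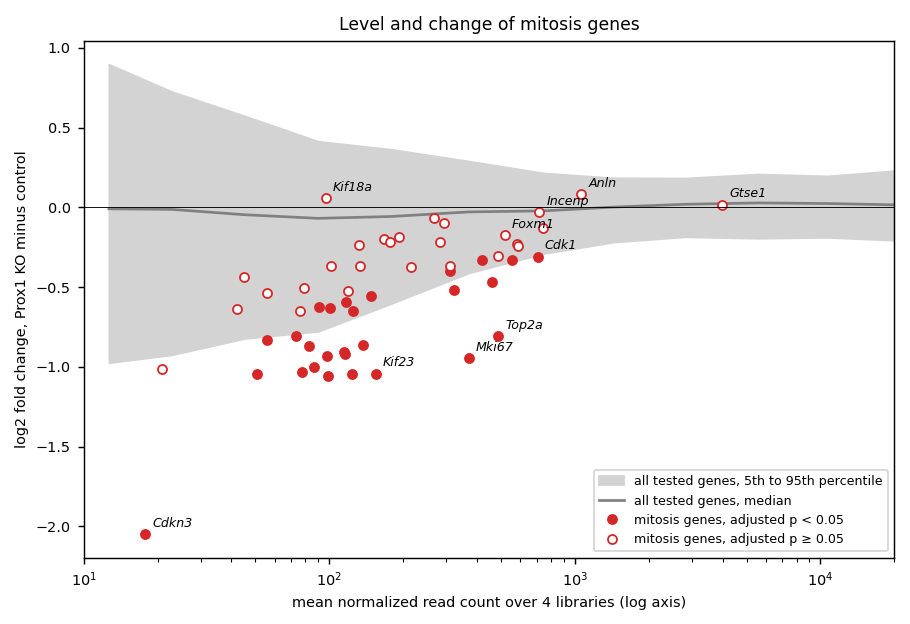
Log2 fold change, libraries labelled Prox1 KO minus controls (y axis), against mean normalized read count over the 4 libraries (x axis, log axis) for the 54 genes, filled where the adjusted p from limma was under 0.05, with the median and the 5th to 95th percentile of all genes tested in grey. Filled points lie near or below the lower edge of the grey band, and the points of high level, such as Gtse1 and Anln, lie near 0.

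By promoter class, given as a description, 18 of the 27 genes with CHR letters and a CCAAT box fell, with a median log2 fold change of -0.63 and a range from -2.05 to -0.19. Among the 13 genes with a promoter entry and no CHR letters, 4 fell, namely Ccnb1, Mybl2, Nusap1 and Tacc3, with a median over the 13 of -0.37. The median mean level was 149 normalized counts in the former and 120 in the latter. Anln had CHR letters without a CCAAT box and did not fall, and Gtse1 had CCAAT boxes without either CHR form searched.

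Members also differed between the replicate numbers, in a contrast that the rule for the list did not use. In replicate 2, 7 genes were higher and 0 lower than in replicate 1 by limma with the condition as a term (adjusted p under 0.05), where 4.39% of all genes tested were higher and 3.49% lower, and at an unadjusted p under 0.05, 17 were higher and 0 lower, where 10.3% of all genes tested were higher and 9.43% lower. The 7 were Ckap2l with 0.78, Plk1 with 0.75, Kif2c with 0.71, Bub1b with 0.60, Mki67 with 0.45, Ncaph with 0.40 and Foxm1 with 0.30, each a log2 difference of replicate 2 from replicate 1. In Mki67, both replicate 2 libraries lay above the replicate 1 library of their own group. Over the 54 genes, 47 were above 0 and the median was 0.22, against -0.0024 for all genes tested. edgeR called 7 higher (4.48% of all genes tested) and 0 lower, and DESeq2 0 higher (1.62% of the genes with an adjusted p) and 0 lower, with 3 higher at an unadjusted p under 0.05 (3.83% of all genes tested). Cell type markers moved in the same contrast. In replicate 2, 6 of the 9 fibroblast markers were higher and 0 lower by limma, with a median log2 difference of 0.26, as were 4 of the 6 epithelial markers (0 lower, median 0.34) and 3 of the 7 hepatocyte markers (1 lower, median 0.26). Of the myocyte markers tested, Tnnt2 was lower and Des was not called (median -0.53), and no endothelial (median -0.15) or blood cell marker (0.03) tested was called. Their part in the difference between replicate numbers was not tested.

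Other genes of the cell cycle, from lists that do not share a gene with the 54, were set beside them. Of 82 other G2/M genes, 81 could be tested, and 12 fell (14.8%) and 0 rose, where 6.29% of all genes tested were lower and 5.09% higher. At an unadjusted p under 0.05, limma had 27 of them lower and 2 higher, where 12.4% of all genes tested were lower and 11.3% higher. Their median log2 fold change was -0.19. edgeR called 11 lower (6.48% of all genes tested) and DESeq2 0 (2.07% of the genes with an adjusted p), and both called 0 higher. DESeq2 had 7 lower at an unadjusted p under 0.05 (4.95% of all genes tested). The 4 with the smallest adjusted p were Cep55 (abscission, log2 fold change -1.72), Iqgap3 (-1.03), Cks1b (a CDK subunit, -0.32) and Sgo1 (the protector of centromeric cohesion, -1.23). Of 58 S phase genes, 57 could be tested, of which 14 fell (24.6%) and 1 rose, with a median of -0.21. At an unadjusted p under 0.05, limma had 24 of the S phase genes lower and 1 higher. The helicase subunit genes Mcm6 (-0.44) and Mcm3 (-0.50) and the replication initiation gene Mcm10 (-1.20) fell. Rrm2, a subunit of ribonucleotide reductase, was the gene that rose, from 5210 and 3922 normalized counts in control replicates 1 and 2 to 8334 and 6065 (log2 fold change 0.65, SE 0.04, adjusted p = 2.36e-07 from limma). The difference between the lists was not tested.

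**Figure D5:**
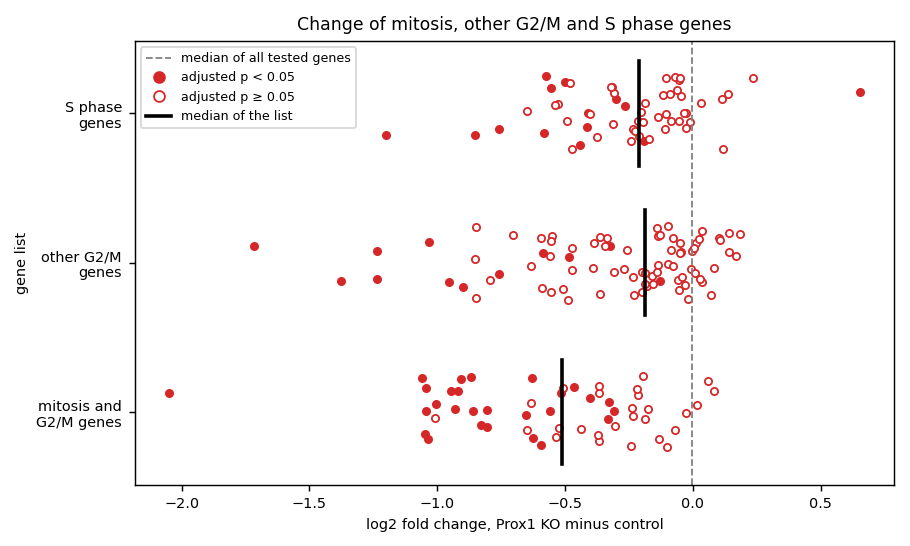
Log2 fold change, libraries labelled Prox1 KO minus controls (x axis), of the 54 mitosis and G2/M genes, 81 other G2/M genes and 57 S phase genes (rows on the y axis), filled where the adjusted p from limma was under 0.05, with the black line at each list's median and the dashed line at the median of all genes tested. The vertical scatter within a row only separates points, the medians are -0.51, -0.19 and -0.21, and Rrm2 is the filled point to the right of 0.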

How the data were processed

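RNA-seq libraries (dUTP protocol, paired-end) of 2 libraries labelled Prox1 KO and 2 controls were grouped from the labels. The authors mapped reads with STAR and deposited a signal per gene, read counts divided by DESeq2 size factors. The counting tool, its strand setting and the annotation are not given in the sources used here. A second deposited table holds the authors' DESeq2 fold changes and p-values and was not used. All positive values (100%, tolerance 0.001) were whole multiples of 1 read per library, so reads were recovered. Amplification is not covered by counting error, and genes with few reads are less precise.

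Genes with a mean of at least 10 (15809 of 55397) were tested with limma 3.58.1 (R 4.3.3) on log2(normalized count + 1) with an intensity trend, a replicate block and Benjamini-Hochberg adjustment, at a threshold of 0.05. This pseudocount understates changes of low genes. The block follows the study's methods (primary MEF line as covariate). Whether the numbers mark lines is not stated, and deviations of same-numbered libraries had a correlation of 0.402 over all genes tested, though genes share their libraries. Replicates of a group differed beyond sampling noise in 34.3% and 35.4% of genes (chi-square, unadjusted p under 0.05), so none was a duplicate. The block leaves little spread to estimate per gene, so the p-values and SE from limma lean on the spread of all genes at a similar level. They do not measure a gene's own spread alone. Mybl2, with pair differences of -0.82 and -0.84, had an SE of 0.24, and Ncapg, with -1.62 and -0.47, one of 0.29. The spread between these libraries may be technical, and an exact permutation test of 2 against 2 cannot go below a two-sided p of 0.333. Alternatives were edgeR 4.0.16 and DESeq2 1.42.0 on recovered reads, no block, other pseudocounts and filters, quantile normalization, each library or pair left out and a correction for GC content and length. The script was run on simulated data with a difference between groups and none between replicate numbers, so that run does not bear on the block. The members and lists were chosen with earlier results of these data known. In each role group the 2 largest fold changes and the most abundant gene, with Mki67, Top2a, Cdk1, Ccnb1, Foxm1, Mybl2, Plk1, Aurkb, Cdc20 and Cdkn3, were given with values, and of each comparison list the 4 smallest adjusted p. Positions, lengths and windows come from GENCODE vM21 (GRCm38), and promoters from RefSeq (GRCm38.p6).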

Additional observations from a re-analysis of the deposited data

How the results depend on the processing

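The count of mitosis and G2/M genes called lower was 27 of 54 and depended on the replicate block, the tool and the scaling. Without the replicate block it was 0, as were the counts of other G2/M genes (12 with the block) and of S phase genes lower (14) and higher (1). DESeq2 with the block called 3 members, 0 other G2/M genes and 1 S phase gene lower, and quantile normalization 16 members and 8 S phase genes. With a minimum mean of 50, 7 other G2/M genes were lower. Leaving out 1 library without the block gave 0 to 1 members, 0 to 0 other G2/M genes, 0 to 0 S phase genes lower and 0 to 0 higher. The median log2 fold change of the members was -0.46 with a pseudocount of 10, -0.43 with quantile normalization, -0.60 to -0.33 with 1 library left out (-0.36 without control replicate 2) and -0.55 to -0.49 in single pairs. In place of 7 members higher in replicate 2, quantile normalization gave a count of 3, DESeq2 0 and a fit without the condition 0. The cause was not tested. edgeR gave the same 27 members, other pseudocounts 27, no filter 33, a minimum mean of 50 gave 26 of 50, and a loess correction on GC content and exonic length, chosen once the results had been seen, 23, all among the 27. That correction moved the higher share of all calls from 44.7% to 56.9% (1116 higher and 845 lower), and the median of the members was then -0.48. No member was called higher under any of these settings. Of the genes given with full values, Foxm1, Gtse1 and Incenp, which did not pass the test, took both signs over the settings, and the others kept their direction. TTTGAA alone was present in 66.0% of the members' promoters, against 70.2% for both CHR forms. The depth limits genes such as Cdkn3, with 4 reads in 1 library.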
